A study of Homo sapiens with 19 samples.

Results

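The genes described are 10 named members of 2 linked receptor systems in MDA-MB-231, an established triple-negative human breast cancer line with mesenchymal features. They are the aryl hydrocarbon receptor AHR, its partner ARNT and its repressor AHRR, the AHR target genes CYP1A1, CYP1B1 and TIPARP, the retinoid enzyme DHRS3, and the retinoid receptors RARA, RARG and RXRA. They were chosen by symbol, and each of the 10 was found once in each of the 3 expression tables, which list 19021 genes (culture), 26955 genes (siSCIRT) and 28870 genes (siEZH2). Of the 10, 9 passed the filter of a mean of 10 normalized counts in the culture table (DHRS3 did not), and 10 passed it in each of the siRNA tables. A normalized count is the number of reads of a gene divided by a size factor of its library, and it compares libraries of 1 table.

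Adherent cells grew in DMEM with 10% FCS (n = 2 libraries). Spheres were held in suspension in non-adherent plates, in DMEM/F12 with B27 at 1 in 50, EGF at 20 ng/ml and FGF at 20 ng/ml, for 16 h (n = 2) or 5 d (n = 2). In the siRNA experiments, cells were reverse transfected and held in the same sphere medium for 48 h: 3 libraries each of siSCIRT#1, siSCIRT#2 and the control siRNA siNC, and in a separate experiment 2 libraries each of siEZH2 and siNC. SCIRT is a long noncoding RNA and EZH2 is the histone methyltransferase of Polycomb repressive complex 2. No group carries a further allele or drug according to the labels. Attachment, serum, medium and growth factors all differ between adherent cells and spheres and cannot be told apart. The labels do not say whether the libraries of a group came from separate cultures, so every p-value here speaks only to the spread from library to library, which may be technical. The test used also pools that spread in part over genes.

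AHR is a transcription factor of the bHLH-PAS family that waits in the cytoplasm with HSP90 chaperones until a ligand, such as a dioxin, a plant indole or a tryptophan product, binds it. It then enters the nucleus, pairs with ARNT and activates genes whose control regions hold a xenobiotic response element, among them the cytochromes CYP1A1 and CYP1B1 and the brakes AHRR and TIPARP. Retinoic acid acts through RAR and RXR proteins, which bind DNA as pairs, and enzymes such as DHRS3 hold its supply down by turning retinal back into retinol. Both systems are known in breast cancer lines for effects on differentiation and drug metabolism.

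Culture libraries held 6104222 to 14781941 reads, 38635418 to 62218847 reads stood behind each siSCIRT library and 27989577 to 38955312 behind each siEZH2 library. The 9 markers of the line summed to between 7365 and 19927 RPM (reads of a gene scaled to a library of 1000000 reads) over all 19 libraries. The sum was highest at 16 h, where FN1 averaged 11524 RPM against 377 in adherent cells. Other markers of the line went either way, with VIM at 5741 against 3531 and AXL at 276 against 992. Luminal or epithelial markers summed to at most 109.6 RPM and liver markers to at most 7.93. Blood markers summed to at most 1.35, endothelial markers to at most 1.37 and adipocyte markers to at most 1.62. SCIRT, listed under the name RP5-1120P11.1, had 256 to 287 normalized counts under siNC and 105 to 159 with either siSCIRT. EZH2 had 518 and 529 under its siNC against 275 and 278 under siEZH2. Both targets were therefore lower in the libraries labelled as their knockdown. EZH2 was lower with either siSCIRT as well, at 1668 to 1847 against 2280 to 2699 under siNC. SCIRT held 143 and 118 under siEZH2 against 144 and 196 under the siNC of that experiment.

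The core of the xenobiotic response element is the run GCGTG, searched on both strands (CACGC on the other). In the 250 bases before the annotated start sites, taken from RefSeq (GRCh38.p14), 9 of the 10 genes had an entry, with 17 windows, and 5 windows of 4 genes held the core (CYP1A1, TIPARP, AHRR and RARA). Of 35116 such windows over all genes, 32.2% held it and 10.2% held it at least 2 times. The windows of 3 AHR targets are shown because the genes' results in the spheres differed. Each is written 5′ to 3′ on the strand of the gene, with the core in capitals. CYP1A1 is at chr15:74725529-74725778 on the minus strand, TIPARP (first of its start sites) at chr3:156674340-156674589 on the plus strand, and AHRR (first of its start sites) at chr5:321464-321713 on the plus strand.
CYP1A1: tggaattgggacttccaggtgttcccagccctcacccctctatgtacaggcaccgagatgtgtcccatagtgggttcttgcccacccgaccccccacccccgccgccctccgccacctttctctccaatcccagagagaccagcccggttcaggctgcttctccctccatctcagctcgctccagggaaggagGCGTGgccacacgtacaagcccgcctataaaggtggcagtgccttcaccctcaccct
TIPARP: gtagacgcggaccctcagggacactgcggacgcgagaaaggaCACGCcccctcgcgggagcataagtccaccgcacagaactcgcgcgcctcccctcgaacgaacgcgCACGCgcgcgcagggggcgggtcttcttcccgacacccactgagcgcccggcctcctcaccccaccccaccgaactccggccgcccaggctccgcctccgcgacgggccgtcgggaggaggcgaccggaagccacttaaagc
AHRR: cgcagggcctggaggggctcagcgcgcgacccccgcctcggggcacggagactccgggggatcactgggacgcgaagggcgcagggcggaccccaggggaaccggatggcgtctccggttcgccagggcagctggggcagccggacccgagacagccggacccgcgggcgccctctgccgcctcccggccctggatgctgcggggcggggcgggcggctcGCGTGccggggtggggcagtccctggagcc
Counted back from the start site, the core begins at -57 in CYP1A1, at -208 and -142 in TIPARP and at -30 in AHRR. A match in these letters is a description of the window and not a bound site, and binding was not measured here.

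In the first 16 h as spheres, both partners of the AHR dimer rose while CYP1A1, the target by which AHR activity is most often read, fell. Of the other AHR targets among the members, CYP1B1 and TIPARP rose, and AHRR did not pass the test. RARA, RARG and RXRA rose as well. A wider list of AHR target genes was split, with 5 higher and 5 lower of 12 tested (41.7% each). Of the 9 members tested against adherent cells at 16 h, 7 were higher, beside 27.4% of the 13789 genes tested, and 1 was lower (CYP1A1), beside 26.5%. CYP1A1 passed the filter only through the adherent libraries. The median log2 fold change of the 9 was 0.71, and that of all genes tested was -0.01. These are bulk RNA values, in which fewer cells that use a gene and less RNA per cell cannot be told apart. Genes were tested with limma on log2 of the normalized count plus 1, and adjusted p-values are Benjamini-Hochberg values over all genes of the comparison. Limma draws the spread of a gene toward that of all genes at a similar level, so an SE is not that of the gene's own libraries alone.

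In adherent cells AHR held 407 and 414 normalized counts, against 635 and 696 after 16 h and 748 and 747 after 5 d as spheres. The 3 groups did not overlap, with adherent cells lowest and 5 d spheres highest. AHR rose by 0.70 ± 0.08 (log2 fold change ± SE) at 16 h (limma adjusted p = 4.2e-09) and at 5 d by 0.86 ± 0.08 (adjusted p = 2.62e-11). Its step from 16 h to 5 d of 0.17 ± 0.08 missed the threshold (adjusted p = 0.0912) and passed it after quantile normalization (0.23, adjusted p = 0.0239).

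ARNT, the nuclear partner that AHR shares with the hypoxia-inducible factors, held 387 and 367 normalized counts in adherent cells, 679 and 652 at 16 h, and 531 and 550 at 5 d. Both sphere groups lay above adherent cells, and 5 d spheres lay between the other two. ARNT rose by 0.82 ± 0.09 at 16 h (limma adjusted p = 3.59e-10) and was still higher at 5 d, by 0.52 ± 0.09 (adjusted p = 4.58e-06). From 16 h to 5 d it fell by 0.30 ± 0.09 on the log2 scale (adjusted p = 0.00487).

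AHRR, the repressor that competes with AHR for ARNT, held 52.1 and 53.0 normalized counts in adherent cells, 55.4 and 29.3 at 16 h, and 42.4 and 47.8 at 5 d. The pair of 16 h libraries spanned the whole range of the gene. AHRR shares 244 exonic bases (3.18%) on the same strand with PDCD6, which held 668 to 799 normalized counts in the culture table. Whether reads of PDCD6 were counted for AHRR was not tested. The log2 fold changes of AHRR, -0.37 ± 0.31 at 16 h (limma adjusted p = 0.319) and -0.22 ± 0.31 at 5 d (adjusted p = 0.568), did not pass the test. The value at 16 h rests on single libraries, since it was 0.08 (adjusted p = 0.864) without the second sphere library and -0.82 (adjusted p = 0.049) without the first.

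CYP1A1, a monooxygenase that oxidizes polycyclic aromatic compounds, held 61.1 and 46.9 normalized counts in adherent cells. After 16 h as spheres it held 2.13 and 3.66, and after 5 d 7.25 and 6.16. The lowest adherent library lay far above each of the 4 sphere libraries. Behind these values stood 81 and 77 reads in adherent cells, 2 and 3 reads at 16 h, and 7 and 4 reads at 5 d, so the gene passed the filter only through the adherent libraries.

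The ratio of mean normalized counts, adherent over spheres, was 18.6 at 16 h, with a 95% interval of 7.99 to 57.4 from the Poisson error of the 5 sphere reads. At 5 d it was 8.05 (4.50 to 16.1, from 11 sphere reads). These intervals cover counting error only. In the limma fit CYP1A1 fell by 3.83 ± 0.56 at 16 h (adjusted p = 2.73e-07) and at 5 d by 2.83 ± 0.56 (adjusted p = 4.73e-05). Each gene is fitted on its own values, so a fit with no filter on low values could not change these log2 fold changes. Its limma adjusted p-values were 3.1e-07 and 4.52e-05, and it is no check on the calls. The difference between the sphere times, 1.01 ± 0.56, did not pass the test (adjusted p = 0.137) except in the fit without a trend in the variance (adjusted p = 0.0395).

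CYP1B1, a sister enzyme that hydroxylates estradiol and also oxidizes retinol, went the other way. From 50.6 and 56.0 normalized counts in adherent cells it went to 281 and 316 at 16 h, and it stood at 92.1 and 102 at 5 d. The 16 h libraries stood apart from the rest, and the 5 d libraries were closer to adherent cells. CYP1B1 rose by 2.47 ± 0.19 at 16 h (limma adjusted p = 5.57e-14), and 96.7% of all genes tested had a smaller change in size. It was 0.85 ± 0.19 above adherent cells at 5 d (adjusted p = 0.00023). Between the sphere times it fell by 1.61 ± 0.19 (adjusted p = 4.93e-09). The library kit does not mark strand, and 678 exonic bases of CYP1B1 (11.3%) overlap CYP1B1-AS1 on the other strand, which held 0 to 12.2 normalized counts in the culture table.

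TIPARP, a mono-ADP-ribosyltransferase that shuts AHR signalling down, held 382 and 429 normalized counts in adherent cells, 1621 and 1542 at 16 h, and 880 and 739 at 5 d. The 3 groups did not overlap, and the order was that of CYP1B1. TIPARP rose by 1.96 ± 0.08 at 16 h (limma adjusted p = 4.85e-22) and stood 0.99 ± 0.08 above adherent cells at 5 d (adjusted p = 2.97e-13). From 16 h to 5 d it fell by 0.97 ± 0.08 (adjusted p = 8.81e-13).

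**Figure D1:**
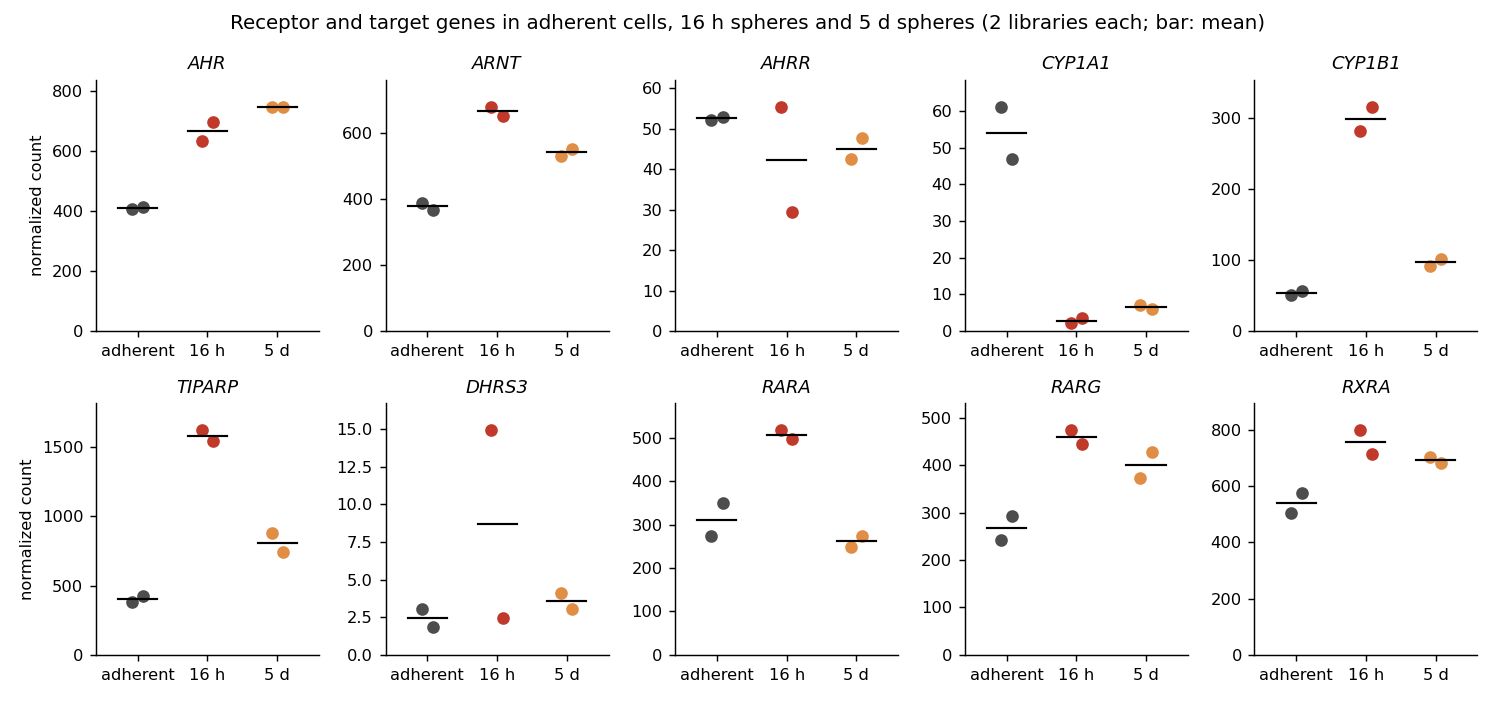
Normalized counts of the 10 genes (y axis, linear from 0, own scale per gene) in adherent cells, 16 h spheres and 5 d spheres; each point is 1 library and each bar the mean of 2. CYP1A1 is high in adherent cells (61.1 and 46.9) and low in spheres, while CYP1B1 (281 and 316) and TIPARP (1621 and 1542) peak at 16 h.

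RARA, RARG and RXRA rose at 16 h, and RARA fell again by 5 d. RARA, the retinoic acid receptor expressed in most tissues, held 273 and 349 normalized counts in adherent cells, 517 and 497 at 16 h, and 248 and 274 at 5 d. The 16 h libraries lay above all others, and the ranges of adherent cells and 5 d spheres overlapped. RARA rose by 0.71 ± 0.12 at 16 h (limma adjusted p = 2.01e-06) and fell by 0.95 ± 0.12 from 16 h to 5 d (adjusted p = 9.75e-09). Its value at 5 d against adherent cells, -0.24 ± 0.12, missed the threshold (adjusted p = 0.0738). That value passed it with edgeR (-0.26, adjusted p = 0.0482), without the first adherent library (-0.42, adjusted p = 0.012) and without the second 5 d library (-0.31, adjusted p = 0.0441).

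RARG, the receptor subtype best known from epithelium and skin, held 243 and 293 normalized counts in adherent cells, 473 and 445 at 16 h, and 373 and 427 at 5 d. It rose by 0.78 ± 0.11 at 16 h (limma adjusted p = 1.67e-07) and at 5 d by 0.58 ± 0.11 (adjusted p = 3.05e-05). RXRA, the common partner of RAR and many other nuclear receptors, held 503 and 575, then 798 and 714, then 704 and 682. It rose by 0.49 ± 0.08 at 16 h (adjusted p = 4.45e-06) and at 5 d by 0.36 ± 0.08 (adjusted p = 0.000299). For both genes each sphere library lay above each adherent library. Between 16 h and 5 d RARG (-0.20 ± 0.11, adjusted p = 0.134) and RXRA (-0.12 ± 0.08, adjusted p = 0.224) did not pass the test.

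DHRS3, a retinal reductase induced by retinoic acid, was close to the detection limit in culture, with 4 and 3 reads in adherent cells, 14 and 2 at 16 h, and 4 and 2 at 5 d. These counts gave 3.02 and 1.83, then 14.9 and 2.44, then 4.14 and 3.08 normalized counts. With so few reads the gene did not pass the filter, and whether the groups differ was not tested.

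At 5 d, 6 of the 9 members tested were higher than in adherent cells, beside 26.3% of all genes tested, and 1 was lower, beside 28.9%. The median log2 fold change of the 9 was 0.52, against -0.02 for all genes. From 16 h to 5 d, none of the 9 rose, beside 22.8% of all genes, and 4 fell (ARNT, CYP1B1, TIPARP and RARA), beside 25.5%. Both comparisons with adherent cells share the adherent libraries. Fibroblast and stroma markers (PDGFRB, COL1A1 and DCN) summed to 7.18 to 7.92 RPM in adherent cells, 100 to 103 at 16 h and 10.2 to 13.5 at 5 d. The sum at 16 h is almost all DCN, at 0 to 0.068 RPM in adherent cells, 92.9 to 94.3 at 16 h and 0.655 to 0.891 at 5 d. COL1A1 stood at 1.17 to 1.62 RPM in adherent cells, 4.88 to 6.25 at 16 h and 4.68 to 4.91 at 5 d. PDGFRB stood lowest at 16 h, at 6.01 to 6.22, then 2.08 to 2.72, then 4.59 to 7.91. The part of these markers in the results was not tested.

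**Figure D2:**
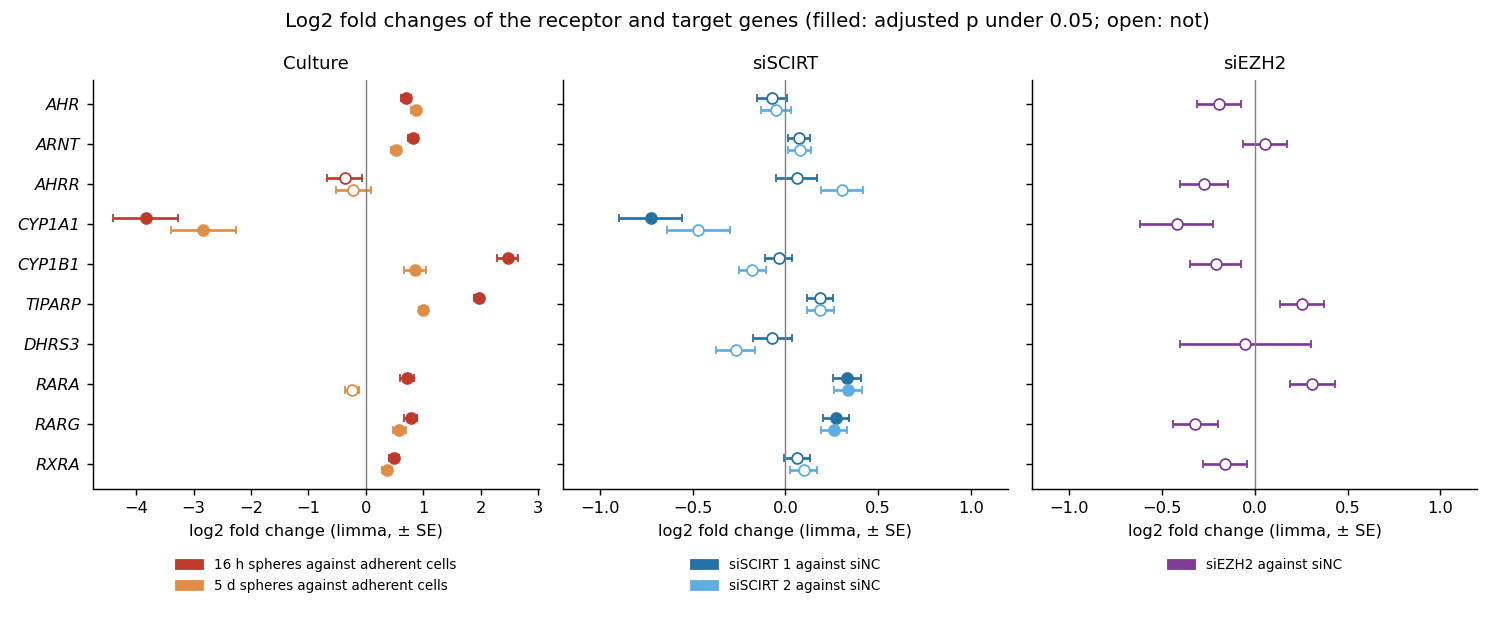
Log2 fold changes (x axis, limma, bars are ± 1 SE) of the members against adherent cells (left) or against siNC of the same table (middle and right); filled points had an adjusted p under 0.05. The culture panel spans -3.83 (CYP1A1) to 2.47 (CYP1B1), the siRNA panels use a narrower axis, and DHRS3 was not tested in culture.

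Levels of different genes were set side by side as RPM per kilobase of annotated exons (GENCODE 29, basic set). In adherent cells TIPARP (9.33), RARG (8.66), ARNT (8.46) and RARA (8.29) stood close together, and AHR stood at 5.93. CYP1A1 stood at 1.94 and CYP1B1 at 1.08. In 16 h spheres this order was turned round, with CYP1B1 at 5.07 and CYP1A1 at 0.0874, and TIPARP reached 30.6. RXRA was left out of this order because its annotated exons sum to 1846 bases in the basic set and 11083 bases in the full set. RARG (3430 and 5127 bases) and ARNT (4943 and 6516) also differ between the sets, more than TIPARP (4814 and 5048) and AHR (7666 and 8081). The spacing among these genes in adherent cells therefore depends on the set.

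Counts of list genes stand beside the shares of all genes called, which were 27.4% higher and 26.5% lower at 16 h, and 26.3% higher and 28.9% lower at 5 d. Genes around AHR were taken from a list of 14 that forms or assists its complex. In 16 h spheres 5 of the 14 were higher (35.7%) and 2 lower (14.3%) than in adherent cells, with a median log2 fold change of 0.20 against -0.01 for all genes. At 5 d, 8 were higher (57.1%) and 4 lower (28.6%), with a median of 0.19. ARNT2, the paralog that can take the place of ARNT, fell by 1.94 ± 0.14 at 16 h (limma adjusted p = 7.77e-15) and at 5 d by 2.17 ± 0.14 (adjusted p = 3.86e-16). It held 527 to 573 normalized counts in adherent cells and 114 to 143 in the spheres, so ARNT and ARNT2 changed in opposite directions. KLF6, a zinc finger factor that can pair with AHR, rose by 1.01 ± 0.04 at 16 h (adjusted p = 1.06e-22). Of the HSP90 chaperones at 16 h, HSP90AB1 rose by 0.28 ± 0.01 (adjusted p = 5.77e-19) and HSP90AA1 fell by 0.28 ± 0.02 (adjusted p = 1.56e-17).

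The list of AHR target genes was split. Of its 18 genes, 12 were tested in culture. At 16 h 5 were higher and 5 lower (41.7% each), with a median log2 fold change of -0.08, and at 5 d 5 were higher (41.7%) and 4 lower (33.3%), with a median of -0.02. Beside CYP1A1, NQO1, a quinone reductase, fell by 1.67 ± 0.05 at 16 h (limma adjusted p = 1.49e-25). It held 1988 to 2004 normalized counts in adherent cells, 609 to 642 at 16 h and 2243 to 2262 at 5 d, which was 0.17 ± 0.05 above adherent cells (adjusted p = 0.00631). ABCG2, a drug efflux pump, held 103 to 107 in adherent cells, 3.20 to 3.66 at 16 h and 55.9 to 69.3 at 5 d, and was lower at 16 h (adjusted p = 4e-14). At 5 d, then, NQO1 was above its adherent level and ABCG2 was not called, while CYP1A1 was still lower. On the other side LTBP3, a matrix protein that binds latent TGF-beta, rose by 2.41 ± 0.10 at 16 h (adjusted p = 1.43e-21). Many of these genes answer to other regulators as well, NQO1 to NRF2 among them.

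Of 13 listed symbols of enzymes and carriers that shape tryptophan-derived AHR ligands, 8 were tested in culture. These were mixed at 16 h, with 3 higher and 3 lower (37.5% each). At 5 d, 1 was higher (12.5%) and 5 were lower (62.5%). IDO1 and IL4I1, named after their values were seen, were not tested. IDO1 held 3 reads in adherent cells, 0 at 16 h and 5 at 5 d, and IL4I1 held 0, 2 and 3. SLC7A5 and SLC3A2, the 2 chains of a tryptophan and leucine carrier, fell by 1.10 ± 0.03 (limma adjusted p = 7.86e-26) and by 1.60 ± 0.04 (adjusted p = 1.73e-29) at 16 h. KYNU, which cleaves kynurenines, rose by 2.26 ± 0.30 at 16 h (adjusted p = 3.19e-08). KMO, which hydroxylates kynurenine, fell by 1.88 ± 0.16 at 5 d (adjusted p = 5.75e-13).

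Genes of retinoid uptake and metabolism showed no common direction. Of 27, 12 were tested in culture, and 3 were higher (25%) and 5 lower (41.7%) at 16 h (median -0.10). CRABP2, which carries retinoic acid to the receptors, rose from 13.4 to 13.6 normalized counts in adherent cells to 45.8 to 66.0 at 16 h (log2 fold change 1.95 ± 0.38, limma adjusted p = 3.91e-05). RDH10, which oxidizes retinol in the step that DHRS3 reverses, fell by 0.81 ± 0.19 at 16 h (adjusted p = 0.000578) and at 5 d by 1.04 ± 0.19 (adjusted p = 2.23e-05). Among weak genes named after their values were seen, ALDH1A2, which makes retinoic acid, held 97 reads over both adherent libraries, 7 at 16 h and 22 at 5 d. DHRS9, a retinol dehydrogenase, held 1 read in adherent cells, 36 at 16 h and 15 at 5 d.

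Of 15 receptors and cofactors tested, 8 were higher (53.3%, beside 27.4% of all genes) and none lower (beside 26.5%) at 16 h, with a median of 0.34. At 5 d, 11 were higher (73.3%, beside 26.3%) and 1 lower (6.67%, beside 28.9%), with a median of 0.36. The list holds RARA, RARG and RXRA. RXRB, named after its values were seen, was not called at 16 h (log2 fold change 0.002) and was the gene lower at 5 d (-0.56). NRIP1, a corepressor of liganded receptors, rose by 1.26 ± 0.19 at 16 h (adjusted p = 3.35e-07). RARB, the receptor that retinoic acid itself induces, did not pass the filter, and it too was named after its values were seen. Its reads numbered 53 in adherent cells, 2 at 16 h and 3 at 5 d.

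Of 9 retinoic acid targets tested, 6 were higher (66.7%) and 2 lower (22.2%) at 16 h (median 0.86), and 4 were higher (44.4%) and 2 lower (22.2%) at 5 d (median 0.52). TGM2, a transglutaminase, rose by 2.69 ± 0.03 at 16 h (limma adjusted p = 7.99e-40), from 1301 to 1358 normalized counts to 8543 to 8654. UCP2, a mitochondrial carrier, fell by 1.63 ± 0.15 (adjusted p = 9.08e-12). Receptors that pair with RXR were divided, with 4 higher (30.8%) and 5 lower (38.5%) of 13 tested at 16 h. NR2F2 rose by 0.88 ± 0.05 (adjusted p = 4.3e-19), and PPARG fell by 0.70 ± 0.08 (adjusted p = 7.14e-10) and was not called at 5 d.

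**Figure D3:**
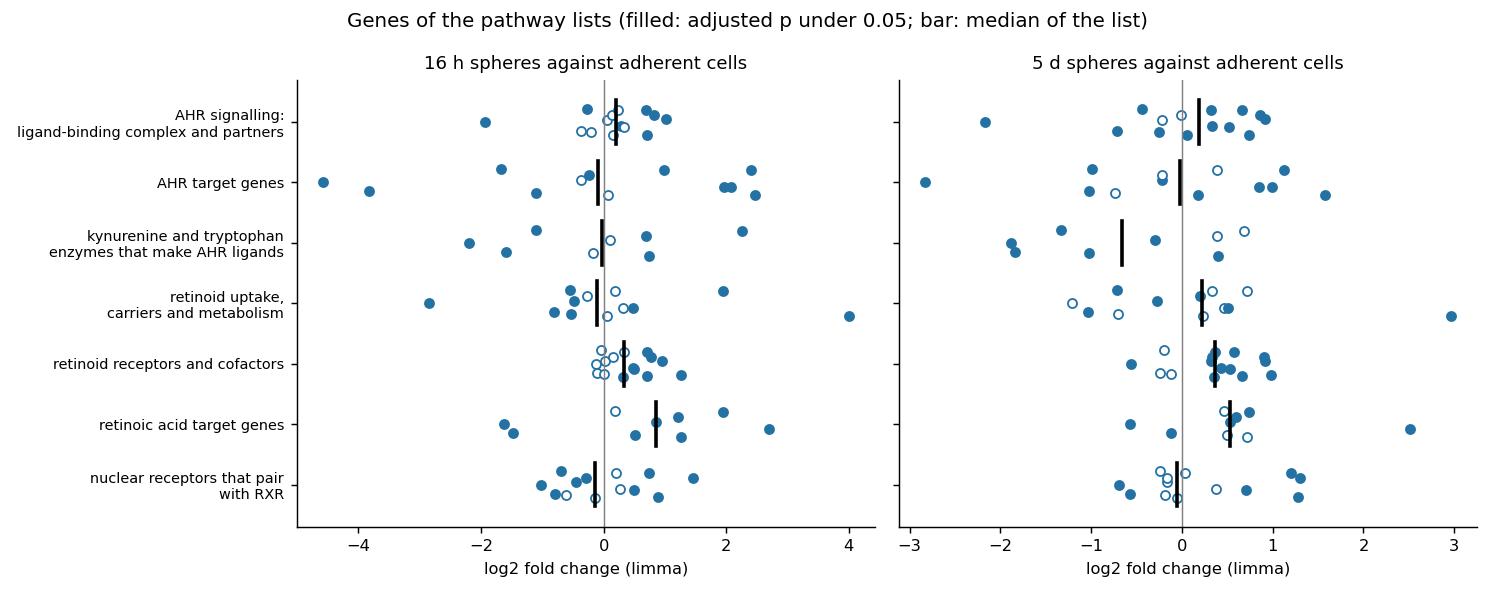
Log2 fold changes (x axis, limma) of the tested genes of 7 pathway lists at 16 h and 5 d against adherent cells; each point is a gene (filled: adjusted p under 0.05) and each bar the median of its list. AHR target genes lie on both sides of 0 at 16 h (5 higher, 5 lower), and no receptor or cofactor gene called at 16 h is lower.

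In the SCIRT knockdown RARA and RARG rose with each siRNA, CYP1A1 fell under siSCIRT 1, and AHR, ARNT and RXRA did not pass the test. Under siSCIRT 1, 2 of the 10 members were higher, beside 4.63% of the 16607 genes tested, and 1 was lower, beside 5.56%. Under siSCIRT 2, 2 were higher, beside 4.49%, and none was lower, beside 5.05%. The median log2 fold change of the members was 0.06 under siSCIRT 1 and 0.09 under siSCIRT 2, and that of all genes was 0.01 in each. Columns that carry no siRNA number were read as siSCIRT 1, which is an inference from the numbered siSCIRT 2 columns. The siRNAs share the siNC libraries, so their values are not independent of each other.

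RARA stood at 2323, 2467 and 2008 normalized counts under siNC, 2809, 2832 and 2893 under siSCIRT 1, and 2977, 2831 and 2763 under siSCIRT 2. Each knockdown library lay above each control library. RARA rose by 0.33 ± 0.08 under siSCIRT 1 (limma adjusted p = 0.0114) and by 0.34 ± 0.08 under siSCIRT 2 (adjusted p = 0.0112). The third siNC library was the lowest of all, and without it the values were 0.25 (adjusted p = 0.0684) and 0.25 (adjusted p = 0.0678). They also missed the threshold without a trend in the variance (adjusted p = 0.0606 and 0.0626) and, for siSCIRT 1, without replicate 3 of that siRNA (adjusted p = 0.0529). RARA shares 556 exonic bases (11.8%) with an antisense gene, CTD-2267D19.2 in the tables, which held 54.8 to 113 normalized counts here.

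RARG stood at 1910, 1942 and 1802 normalized counts under siNC, 2340, 2199 and 2289 under siSCIRT 1, and 2432, 2182 and 2180 under siSCIRT 2. Again no knockdown library reached down to a control. RARG rose by 0.27 ± 0.07 under siSCIRT 1 (limma adjusted p = 0.0221) and by 0.26 ± 0.07 under siSCIRT 2 (adjusted p = 0.0277). These calls were lost in several settings: without a trend in the variance (adjusted p = 0.0624 and 0.0741), without siNC replicate 1 (0.059 and 0.0719), without siNC replicate 3 (0.107 and 0.127), and, for siSCIRT 2, with only the compared groups in the fit (0.0547). For siSCIRT 1 they were also lost without any 1 of its own libraries (0.0527 to 0.0821), and for siSCIRT 2 without replicate 1 (0.114) or replicate 3 (0.054).

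CYP1A1 stood at 144, 143 and 186 normalized counts under siNC, 87.3, 96.6 and 98.8 under siSCIRT 1, and 112, 130 and 98.2 under siSCIRT 2. All 6 knockdown libraries lay below all 3 controls. CYP1A1 fell by 0.73 ± 0.17 under siSCIRT 1 (limma adjusted p = 0.0133), and this became -0.60 (adjusted p = 0.088) without the third siNC library, the highest. Under siSCIRT 2 the value was -0.47 ± 0.17 and missed the threshold (adjusted p = 0.105). The siRNAs themselves differed by 0.26 ± 0.17 (adjusted p = 1), so a difference between them was not shown.

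TIPARP stood at 3721, 4091 and 3553 normalized counts under siNC, 4578, 4163 and 4191 under siSCIRT 1, and 4237, 4582 and 4127 under siSCIRT 2. The lowest knockdown library lay above the highest control, yet the values of 0.19 ± 0.07 (limma adjusted p = 0.121) and 0.19 ± 0.07 (adjusted p = 0.119) did not pass the test. They did without the second siNC library (0.24 and 0.25, adjusted p = 0.0432 and 0.0426). AHRR held 536, 548 and 574 under siNC, 494, 608 and 638 under siSCIRT 1, and 606, 751 and 700 under siSCIRT 2. Its values were 0.06 ± 0.11 (adjusted p = 0.798) and 0.31 ± 0.11 (adjusted p = 0.105).

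The remaining members did not pass the test with either siRNA, in the fit that takes no account of the replicate number. CYP1B1 stood at 2636 to 2900 normalized counts under siNC, 2508 to 2780 under siSCIRT 1 and 2263 to 2594 under siSCIRT 2 (-0.18 ± 0.07, limma adjusted p = 0.152, for the last). DHRS3 held 1750, 1509 and 1561 under siNC, 1785, 1417 and 1409 under siSCIRT 1, and 1509, 1292 and 1215 under siSCIRT 2 (-0.27 ± 0.11, adjusted p = 0.132, for the last). AHR, ARNT and RXRA had log2 fold changes between -0.07 and 0.10, with adjusted p-values from 0.447 to 0.76. Between siSCIRT 2 and siSCIRT 1, limma called none of the 16607 genes (0%) and none of the 10 members. At an unadjusted p under 0.05 there were 451 genes, among them 1 member, AHRR. In that comparison edgeR called 0 genes, and DESeq2 called 6, none of them a member.

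Around these members in the SCIRT knockdown, 2 of 19 genes of retinoid uptake and metabolism rose under siSCIRT 1 (10.5%, beside 4.63% of all genes) and 1 under siSCIRT 2 (5.26%, beside 4.49%). The share under siSCIRT 2 is near that of all genes. CYP26B1, which degrades retinoic acid, rose with both, by 0.24 ± 0.07 (limma adjusted p = 0.0483) and by 0.33 ± 0.07 (adjusted p = 0.0113). STRA6, the cell's receptor for retinol-binding protein, rose by 0.52 ± 0.14 under siSCIRT 1 (adjusted p = 0.0252). CYP26B1 and STRA6 are also on the list of retinoic acid targets. Of its 16 tested genes, 2 rose (12.5%, beside 4.63% of all genes) and none fell (beside 5.56%) under siSCIRT 1. Under siSCIRT 2, 1 rose and 1 fell (6.25% each, beside 4.49% and 5.05%), which is near those shares. The gene that fell was RARRES3, by 0.40 ± 0.11 (limma adjusted p = 0.0427). Of 15 AHR targets, 1 rose (6.67%) and 2 fell (13.3%) with each siRNA, beside 4.63% and 5.56% of all genes under siSCIRT 1 and 4.49% and 5.05% under siSCIRT 2. SERPINB2, a plasminogen activator inhibitor, fell by 1.28 ± 0.27 under siSCIRT 1 (adjusted p = 0.00672) and by 1.28 ± 0.27 under siSCIRT 2 (adjusted p = 0.00726). LTBP3 rose by 0.29 ± 0.07 (adjusted p = 0.0154) and by 0.40 ± 0.07 (adjusted p = 0.00195).

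**Figure D4:**
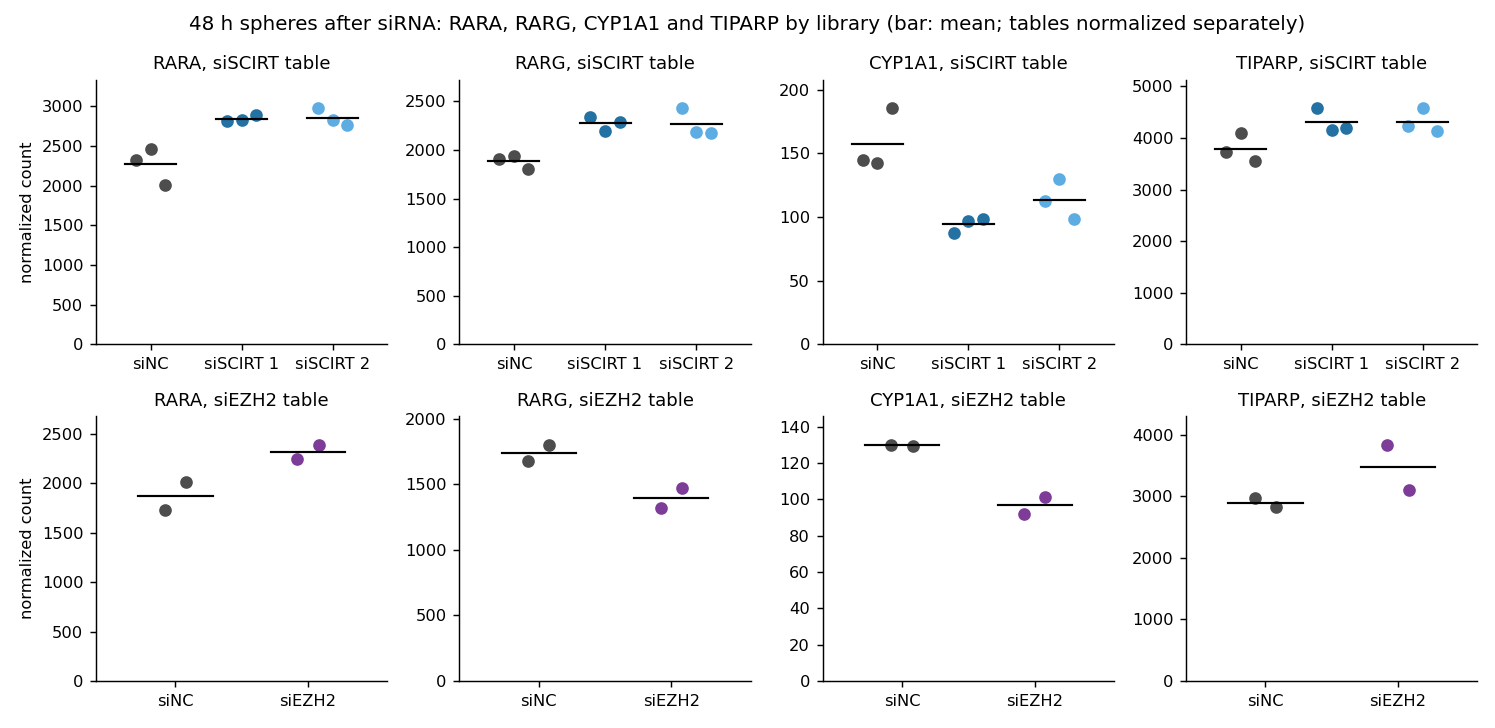
Normalized counts (y axis, linear from 0) of RARA, RARG, CYP1A1 and TIPARP in each library of the siSCIRT table (top, 3 libraries a group) and the siEZH2 table (bottom, 2 a group); bars are means. RARG is higher than siNC in the siSCIRT libraries (2180 to 2432 against 1802 to 1942) and lower in the siEZH2 libraries (1314 and 1474 against 1677 and 1800).

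Under siEZH2, none of the 10 members was called, beside 3.9% of the 15823 genes called higher and 2.94% called lower. At an unadjusted p under 0.05 there were 5 members (AHRR, CYP1A1, TIPARP, RARA and RARG), beside 2974 of the 15823 genes. In this comparison edgeR and DESeq2 called 0 members each. The limma SE here was nearly the same for AHR (0.118), ARNT (0.119), TIPARP (0.118) and RXRA (0.118). These SEs therefore reflect a spread pooled over genes far more than the spread of each gene's own libraries. The median log2 fold change of the members was -0.18, and that of all genes was 0.01. RARG stood at 1677 and 1800 normalized counts under siNC and 1314 and 1474 under siEZH2. Its value of -0.32 ± 0.12 missed the threshold (limma adjusted p = 0.0988). It passed after quantile normalization (-0.36, adjusted p = 0.0468) and without the second siEZH2 library (-0.40, adjusted p = 0.0368).

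RARA stood at 1728 and 2018 normalized counts under siNC and 2248 and 2390 under siEZH2 (0.31 ± 0.12, limma adjusted p = 0.101). CYP1A1 held 130 and 129 against 92.1 and 101 (-0.42 ± 0.20, adjusted p = 0.209). Neither gene passed the test. TIPARP held 2969 and 2825 against 3838 and 3105 (0.25 ± 0.12, adjusted p = 0.209), and without the second siEZH2 library it passed (0.41, adjusted p = 0.0334). AHRR held 967 and 883 against 734 and 798 (-0.27 ± 0.13, adjusted p = 0.222). AHR (-0.19 ± 0.12), CYP1B1 (-0.21 ± 0.14), RXRA (-0.16 ± 0.12), ARNT (0.06 ± 0.12) and DHRS3 (-0.05 ± 0.35) had adjusted p-values from 0.38 to 0.961.

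RARG thus had a positive value with both siSCIRTs and a negative one under siEZH2, while RARA was positive and CYP1A1 negative in all 3. The tables were normalized separately, and whether the responses to the knockdowns differ was not tested. EZH2 itself was called lower with both siSCIRTs (-0.53 ± 0.08, limma adjusted p = 0.000555, and -0.50 ± 0.08, adjusted p = 0.00101). The siSCIRT and siEZH2 libraries thus share a lower EZH2 than their controls.

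In the EZH2 knockdown AHR targets included called genes where the members had none. Of 15 tested, 5 rose (33.3%, beside 3.9% of all genes) and 2 fell (13.3%, beside 2.94%). Without a trend in the variance limma called 0 genes in this comparison, so each of these calls was lost. ALDH3A1, an aldehyde dehydrogenase, fell by 1.31 ± 0.21 (limma adjusted p = 6.04e-08), from 141 to 154 normalized counts under siNC to 53.5 to 65.1. NQO1 fell by 0.52 ± 0.12 (adjusted p = 0.000566). PTGS2 and IL1B, both of the inflammatory response, rose by 0.93 ± 0.12 (adjusted p = 2.3e-12) and by 0.93 ± 0.13 (adjusted p = 1.2e-09). Of 17 genes of retinoid uptake and metabolism and 16 receptors and cofactors, none was called by limma.

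Of the 10 members, DHRS3 differed most between the controls of the siRNA experiments, although both are labelled as 48 h spheres of this line. Its siNC libraries held 28.7 to 32.3 RPM in the siSCIRT table and 0.496 to 0.746 in the siEZH2 table, a ratio of means of 48.7. In the culture table DHRS3 stood at 0.203 to 1.39 RPM. Of 13768 genes at 1 or more RPM in either control group and above 0 in both, the median ratio was 1.04 and 3.46% exceeded 4 in either direction. DHRS3 stood at rank 7 from the highest ratio. The 6 genes above it were MTRNR2L2, MTRNR2L8, TTC34, RP11-512F24.1, DYNC1I2P1 and AC138969.4, of which the MTRNR2L genes are near-identical copies of a mitochondrial gene. Whether reads were shared out differently among similar sequences in the 2 tables was not tested.

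The other members were closer between the controls. CYP1B1 was 2.90 times and AHR 1.58 times as high in the siSCIRT table, AHRR stood at 0.378 times, and the other 6 members lay between 0.687 and 0.928. Of 13 retinoic acid targets compared in the same way, DHRS3 among them, 12 were higher in the siSCIRT table and 1 lower, with a median ratio of 2.23. This was the highest median of the 7 lists, and the others had medians of 0.874 to 1.33. A ratio over 4 was seen for 3 of these 13, 3 of 15 AHR targets and 3 of 9 kynurenine and tryptophan genes. RARRES3 stood at 34.8 against 8.91 RPM and RARB at 5.54 against 0.846. LCN2, also on that list, stood at 32.8 to 38.7 against 1.25 to 1.55, and CYP26B1 at 20.4 against 16.1. The target that was lower was CRABP2, at 6.12 against 9.96. These are levels of separate experiments set side by side with no test, and what sets them apart was not tested.

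**Figure D5:**
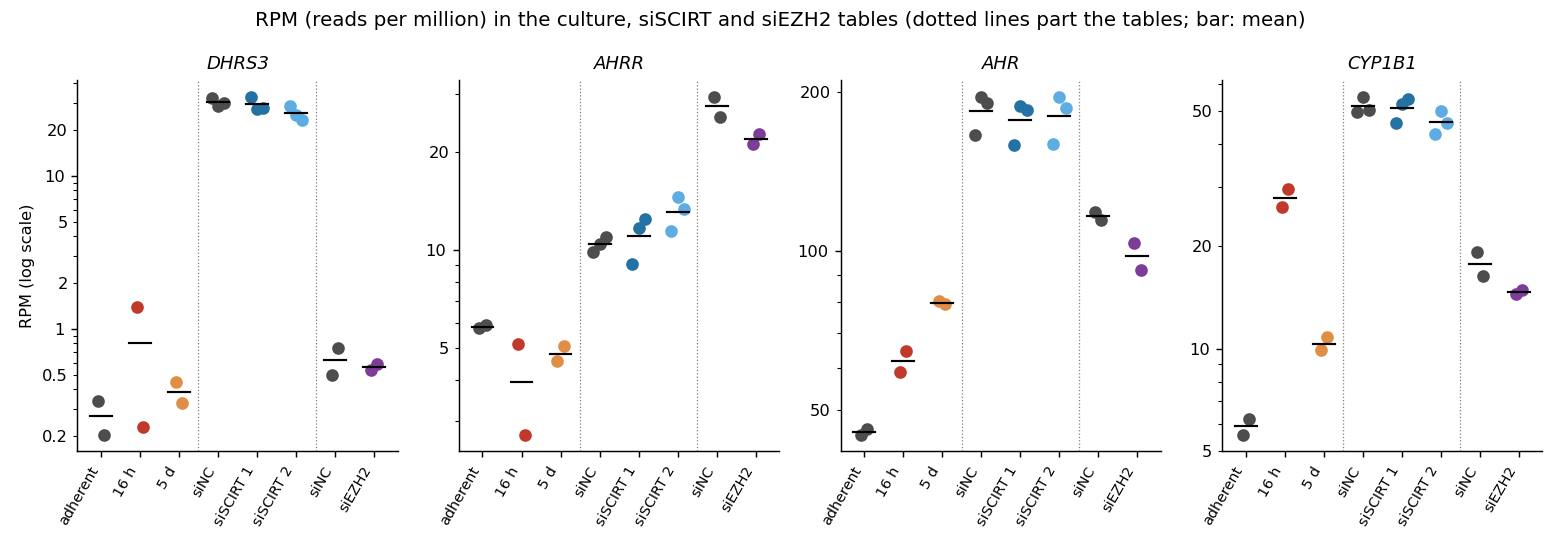
RPM, reads scaled to a library of 1000000 (y axis, log scale) of DHRS3, AHRR, AHR and CYP1B1 in all 19 libraries of 8 groups; points are libraries, bars are means and dotted lines part the separately normalized tables. DHRS3 lies between 23.2 and 32.8 in the siSCIRT table and at or below 1.39 elsewhere.

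As a description of likeness, each member's log2 values were centred within their table and correlated over the 19 libraries with those of 12568 genes. The 3 genes most like TIPARP by Pearson's r were P4HA1, LDHA and EGLN3 (0.98 each). Those most like CYP1B1 were SAA2, C3 and SLC44A1 (0.98 each), and those most like CYP1A1 were SLC20A2 (0.98), ARHGEF28 and C10orf54 (0.97 each). For AHR they were NRP1 (0.97), BTAF1 (0.96) and BBX (0.96), for RXRA TOM1L2 (0.96), GNG7 and KIAA0430, and for RARA C22orf23 (0.94), CRTAP and TMEM158. The libraries share their groups, and the culture groups with the widest spread weigh most in these values. With Spearman's rho none of the 3 genes was shared for CYP1A1, CYP1B1, TIPARP or RARA.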

How the data were processed

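RNA-seq values of 19 libraries came as 3 tables, each normalized on its own. The labels give TRI Reagent extraction of total RNA and TruSeq RNA v2 libraries, a kit that does not mark strand. CASAVA 1.4, TopHat2 and Partek and the hg19 build appear in the submitters' processing notes, without roles. For the counting program and the DESeq2 version, the answer is "not given in the sources used here". The culture and siSCIRT values were deposited on a log2 scale, and the labels name DESeq2 for them. They turned back exactly into normalized counts under the inverse of its variance-stabilizing transform. The deposited siEZH2 values are linear signal, counts that the authors divided by a size factor. In every library 100% of the values were then whole reads, at a tolerance of 0.05 reads. Columns of the siSCIRT table without a siRNA number were read as siSCIRT#1, an inference, since siSCIRT#2 columns carry theirs.

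Limma 3.58.1 (R 4.3.3) was run per table on log2(normalized count + 1) with eBayes (trend, robust), for genes whose mean reached 10. Fold changes are on that scale, which understates changes of low genes. A call needs an adjusted p under 0.05 (Benjamini-Hochberg, two-sided), in 7 comparisons. The fits were tested on simulated data. Other settings tried were pseudocount 8, quantile normalization, eBayes without trend, a mean filter of 50 or none, only the compared groups, the replicate number as a block, edgeR 4.0.16, DESeq2 1.42.0 and each library left out in turn. Members, lists (7, with 112 different genes) and tests were chosen with earlier results of these data known. All members are named. List genes named are among the 4 with the smallest adjusted p in a comparison that reach a mean of 50 in its higher group, and the text says where one was added. Exon lengths and overlaps came from GENCODE 29 (GRCh38), another build than that of the tables, and no coordinates were moved between builds. The start-site window of CYP1B1 was not used here.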

Additional observations from a re-analysis of the deposited data

Results flagged for a closer look

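The effects of 4 members against adherent cells differed between the sphere times, by the limma test of 5 d against 16 h spheres itself. The log2 fold change at 5 d minus that at 16 h was -1.61 for CYP1B1, -0.97 for TIPARP, -0.95 for RARA and -0.30 for ARNT (limma adjusted p = 4.93e-09, 8.81e-13, 9.75e-09 and 0.00487). CYP1B1, TIPARP and ARNT were above adherent cells at both times, and RARA at 16 h. Each value rests on 2 libraries a group, and no group was large enough to look for a library that stands apart.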

How the results depend on the processing

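The 58 log2 fold changes of members were recomputed to 895 alternative values, of which 852 kept their direction and their side of the threshold, 18 were no longer called, 16 became called and 9 changed sign. In culture no call of a member was lost in any alternative that tested it, and CYP1A1 was not tested at a mean of at least 50. With siSCIRT 1, the genes called went from 1693 to 964 without trend and the members from 3 to 1. With siSCIRT 2, the genes called went from 1584 to 824 and the members from 2 to 0 without trend, and the members to 1 with only the compared groups in the fit. With siEZH2, the genes called went from 1082 to 0 without trend and to 678 with DESeq2, and the members from 0 to 1 after quantile normalization. Between the siSCIRTs, the genes called went from 0 to 2 with no filter, 6 with DESeq2 and 1 with only the compared groups. Leaving out each library in turn gave 887 to 1829 genes and 0 to 4 members with siSCIRT 1, 769 to 1815 genes and 0 to 3 members with siSCIRT 2, and 0 to 1 genes between them. With siEZH2 it gave 342 to 1040 genes and 0 to 2 members. The lowest siSCIRT counts came without siNC replicate 3, and the lowest siEZH2 count without siNC replicate 1. The cause was not tested.

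None of the values that changed sign was called in the main fit. Over the left-out libraries AHRR ran from -0.82 to 0.076 at 16 h, from -0.29 to 0.60 between the sphere times and from -0.012 to 0.17 under siSCIRT 1. CYP1B1 under siSCIRT 1 ran from -0.064 to 0.010, AHR under siSCIRT 2 from -0.11 to 0.028 and DHRS3 under siEZH2 from -0.37 to 0.26. DHRS3 under siEZH2 also became 0.10 after quantile normalization.

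With the replicate number as a block (the replicate block), genes called went to 3144 with siSCIRT 1, 3110 with siSCIRT 2, 7 between them and 532 with siEZH2, the members called with siSCIRT 1 went to 4 (TIPARP was added, adjusted p = 0.0287) and those with siSCIRT 2 went to 6 (AHRR, CYP1B1, TIPARP and DHRS3 were added). Correlations of same-numbered libraries' deviations ran from 0.02 to 0.30 in the siSCIRT table, where those of differently numbered libraries ran from -0.21 to 0.19. Same-numbered libraries ran from -0.0089 to 0.019 in culture and stood at -0.085 in the siEZH2 table. The numbers were not used to pair libraries, and whether siSCIRT libraries share a spread by number was not tested.

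Depth limits CYP1A1 and DHRS3 in culture, where groups held 5 to 158 and 6 to 16 reads.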
